A study of Mus musculus with 8 samples.

Results

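The cytosolic ribosome is built from ribosomal RNA and a set of ribosomal proteins, and the genes for these proteins were followed here in the embryonic brain of control mice and of mice with a conditional knockout of the homeodomain factor Meis2. The genes were chosen by type and symbol alone: protein-coding rows named Rpl or Rplp with a number (an added a or x allowed) or Rpl7l1, for the large 60S subunit, and Rps with a number or Rpsa, for the small 40S subunit, without the Rps6k kinases. This gave 77 of 16913 genes in the authors' deposited table, 47 of the large subunit and 30 of the small subunit. RNA came from the lateral ganglionic eminence (LGE), the ventral forebrain zone in which striatal projection neurons arise, dissected at embryonic day 14.5 from mice of a mixed C57BL/6J and CD1 background. Control embryos (4 samples) were littermates with Dlx5/6-Cre and a single floxed Meis2 allele (Dlx5/6-Cre;Meis2F/+), and Meis2-CKO embryos (4 samples) carried the same driver with both alleles floxed (Dlx5/6-Cre;Meis2F/F). Every sample thus carried the Cre driver, which acts in Dlx-expressing cells of the ventral forebrain, so other cells in the dissection keep their floxed alleles and the control is not a wild type. The values are the authors' mean signals per genotype, together with a log2 fold change (log2FC, above 0 where Meis2-CKO is higher) and its p-values; only these means could be tied to the labels, so no spread between brains, depth or interval can be attached to them.

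Ribosomal proteins are among the most heavily transcribed housekeeping products of growing cells, and each assembled ribosome holds most of them in single copy. Most of their mRNAs begin with a C followed by a tract of pyrimidines, the 5′ terminal oligopyrimidine (TOP) tract, through which mTORC1 and LARP1 adjust their translation. The genes have left many processed pseudogenes in the genome, and their introns often hold genes for small nucleolar RNAs (snoRNAs), which guide the modification of ribosomal RNA. In the developing forebrain, dividing progenitors and growing neurons both need ribosomes, so these genes are active in every cell type of the dissected tissue.

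The start-site sequences show what the members share that their choice by name did not use. Of the 77 genes, 57 had an entry in the RefSeq promoter table (GRCm38.p6), which runs from 250 bases before to 50 bases after each annotated start. A run of at least 6 pyrimidines was looked for from 10 bases before to 20 bases from the start on. It was present at 35 of these 57 genes (61.4%), against 32.2% of 10993 other genes in the deposited table with an entry. Here and in the counts of letters below, a gene counted if any of its annotated starts had the feature. The number of starts per gene was not compared between members and other genes. The window is shown for 4 genes with such a tract and for 2 without, 5′ to 3′ on the coding strand. Capitals mark the longest pyrimidine run where it has at least 6 bases. For a gene with several annotated starts, the window with the longest run was picked.
Rplp2 (chr7:141447641-141447670, plus strand): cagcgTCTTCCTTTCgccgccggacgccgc
Rps24 (chr14:24490668-24490697, plus strand): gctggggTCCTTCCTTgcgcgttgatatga
Rpl13a (chr7:45128726-45128755, minus strand): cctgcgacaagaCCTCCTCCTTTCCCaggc
Rpl35a (chr16:33056472-33056501, plus strand): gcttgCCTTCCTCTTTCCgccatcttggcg
Rpl26 (chr11:68901556-68901585, plus strand): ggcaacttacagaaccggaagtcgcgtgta
Rpl7l1 (chr17:46782637-46782666, minus strand): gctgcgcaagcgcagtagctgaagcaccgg
The ETS-family core CCGGAAG, on either strand anywhere in the 300 bases, was found at 23 of the 57 genes (40.4%) and at 18.8% of the other genes. The letters AAGATGGCG, a core of the YY1 site, were found at 4 members (7.02%) and at 3.31% of the others, and TATAAA at 6 members (10.5%) and at 8.60% of the others. A match is a description of the letters only, and annotated starts may lie some bases from the true ones.

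The sample labels were first checked on the targeted gene and on tissue markers. Meis2 (ENSMUSG00000027210) had authors' means of 204 in control against 140 in Meis2-CKO (log2FC -0.53, adjusted p = 0.00195 in the authors' deposited table). All 8 LGE and striatal markers were listed, with none at 0 in a genotype, and their authors' means summed to 811 in control against 836 in Meis2-CKO. The strongest marker alone held 393 and 496 of these sums. The median log2FC of the 8 was -0.31, with 5 below 0 and 3 above, in the authors' deposited table. Of these 8, 4 fell and none rose at the authors' adjusted p of 0.05. Markers of neural progenitors (6 of 6 listed) summed to 1562 in control against 1764 in Meis2-CKO, and those of young neurons (4 of 4) to 1386 and 1234, with no member past the threshold in the authors' deposited table. Among other cell types that the dissection could hold, markers of red blood cells (6 of 6 listed) summed to 2695 and 2710, of pallial cells (4 of 4) to 134 and 155, of endothelial cells and pericytes (5 of 5) to 50.8 and 52.5, of microglia (4 of 4) to 23.9 and 24.6 and of meningeal fibroblasts (4 of 4) to 3.29 and 1.45 in authors' means, with none past the threshold. The Y-linked Eif2s3y stood at 50.5 in control against 14.0 in Meis2-CKO and the X-linked Xist at 78.0 and 256 in authors' means; the labels give no sex. The part of these shifts in the values below was not tested, and in bulk tissue fewer cells of a type and less RNA per cell cannot be told apart.

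None of the 77 ribosomal protein genes passed the threshold in either direction. Across all genes there, 0.78% passed an adjusted p of 0.05 in the authors' deposited table, 0.237% as higher and 0.544% as lower in Meis2-CKO. No member had an unadjusted p under 0.05 either, against 2.17% of all genes, and the smallest belonged to Rpl26 (p = 0.183 in the authors' deposited table). The sources used here do not name the tool behind these p-values, and a p that misses the threshold does not show that a gene is unchanged. With 77 genes and 16913 rows a count of 0 lies close to what the overall share would give.

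The differences themselves were small. The log2FC values in the authors' deposited table ran from -0.30 to 0.12 with a median of -0.024, and the middle of the list (lower to upper quartile) lay between -0.036 and -0.00064. Over all 16913 genes the median was 0.012 and the quartiles -0.10 and 0.11. Below 0 lay 58 of the 77 members (75.3%), against 46.7% of all genes. This lean to the lower side was slight in size. It was present under each scaling tried, with 56 members below 0 when the genotype columns were set to the same sum and 68 when values were centred on the median gene.

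**Figure D1:**
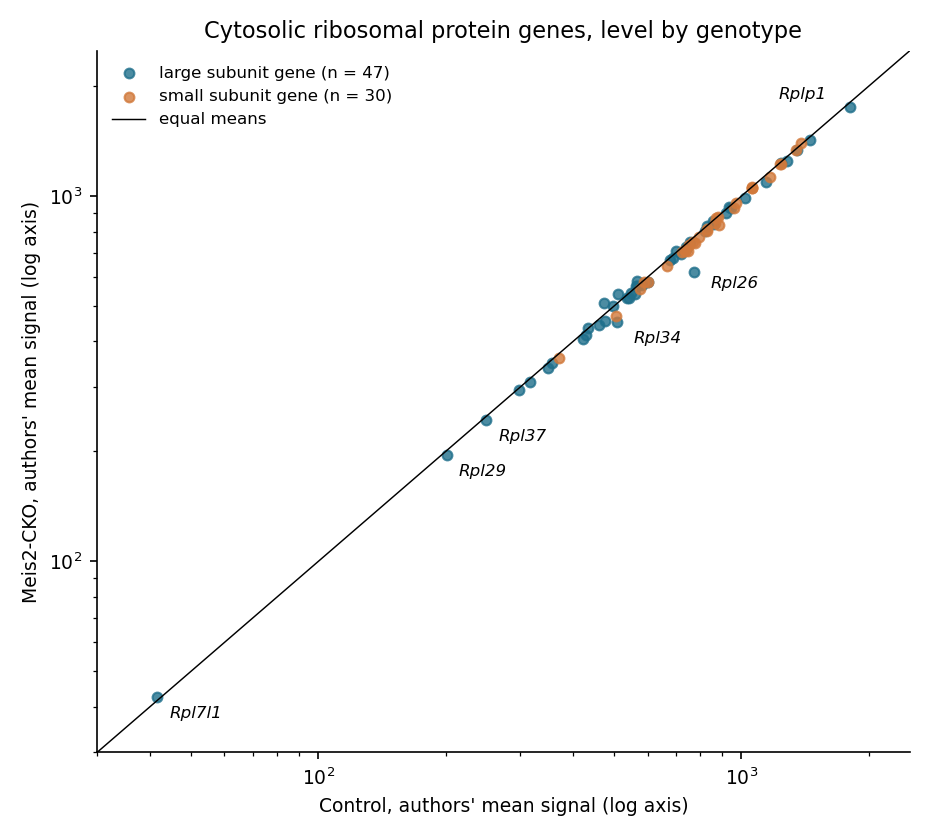
Authors' mean signal of each of the 77 genes in control (horizontal) and Meis2-CKO (vertical), both on log axes, coloured by subunit, with the line of equal means. The points run along the line from Rpl7l1 (41.7 and 42.5) to Rplp1 (1802 and 1749), and Rpl26 (772 and 622) is the point farthest below it.

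Levels among the members spread far more widely than the genotype means differed. The deposited values look scaled to gene length, since the median control value of protein-coding genes rose only from 9.18 to 14.2 while the median exon length rose from 1724 to 10060 nt over 5 bins; the unit is not named. The authors' control means of the members ranged from 41.7 to 1802 with a median of 738. The highest was that of Rplp1, a stalk protein (1802 in control, 1749 in Meis2-CKO, authors' means). Rpl13a, which also has roles in mRNA-specific translational control, followed at 1451 and 1423 in authors' means. Next came Rps24, a small-subunit protein mutated in some Diamond-Blackfan anaemias, at 1386 and 1396 in authors' means. Rps27, a zinc-finger protein of the small subunit, was also near the top, at 1347 and 1340 in authors' means. These genes were strong in both genotypes, and for each the Meis2-CKO mean lay close to the control mean.

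At the low end stood Rpl7l1, a divergent relative of Rpl7 linked to ribosome assembly, with authors' means of 41.7 in control against 42.5 in Meis2-CKO. Rpl29 followed at 201 and 195, Rpl37 at 250 and 244, Rpl21 at 299 and 295 and Rpl35 at 316 and 311 in authors' means. Rpl7l1 was the single member with a control mean under 200. Rpl29 and Rpl21 have strongly expressed near-identical copies, described further on, so their place in this order is uncertain.

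Taken as a sum, the 77 genes held 10.6% of the control column and 10.5% of the Meis2-CKO column of the authors' mean signal. Large-subunit genes made up 55.5% of the members' control signal and 55.4% of their Meis2-CKO signal. The balance between the subunits thus differed by 0.017 percentage points between the genotype columns. The median log2FC in the authors' deposited table was -0.019 for the 47 large-subunit genes, 36 of them below 0, and -0.029 for the 30 small-subunit genes, 22 of them below 0. The small-subunit values ran from -0.090 (Rps7) to 0.018 (Rps24), and all 3 members beyond 0.1 in size were large-subunit genes. The distance between the quartiles was alike, 0.034 for the large and 0.036 for the small subunit, so the wider range of the large subunit rested on its extreme members. Rps7, a small-subunit protein, had authors' means of 504 in control against 471 in Meis2-CKO (p = 0.457 in the authors' deposited table), and Rps28 of 885 and 832 (log2FC -0.082). On the upper side Rpl4 stood at 699 and 709 in authors' means (log2FC 0.031). None of these passed the test.

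**Figure D2:**
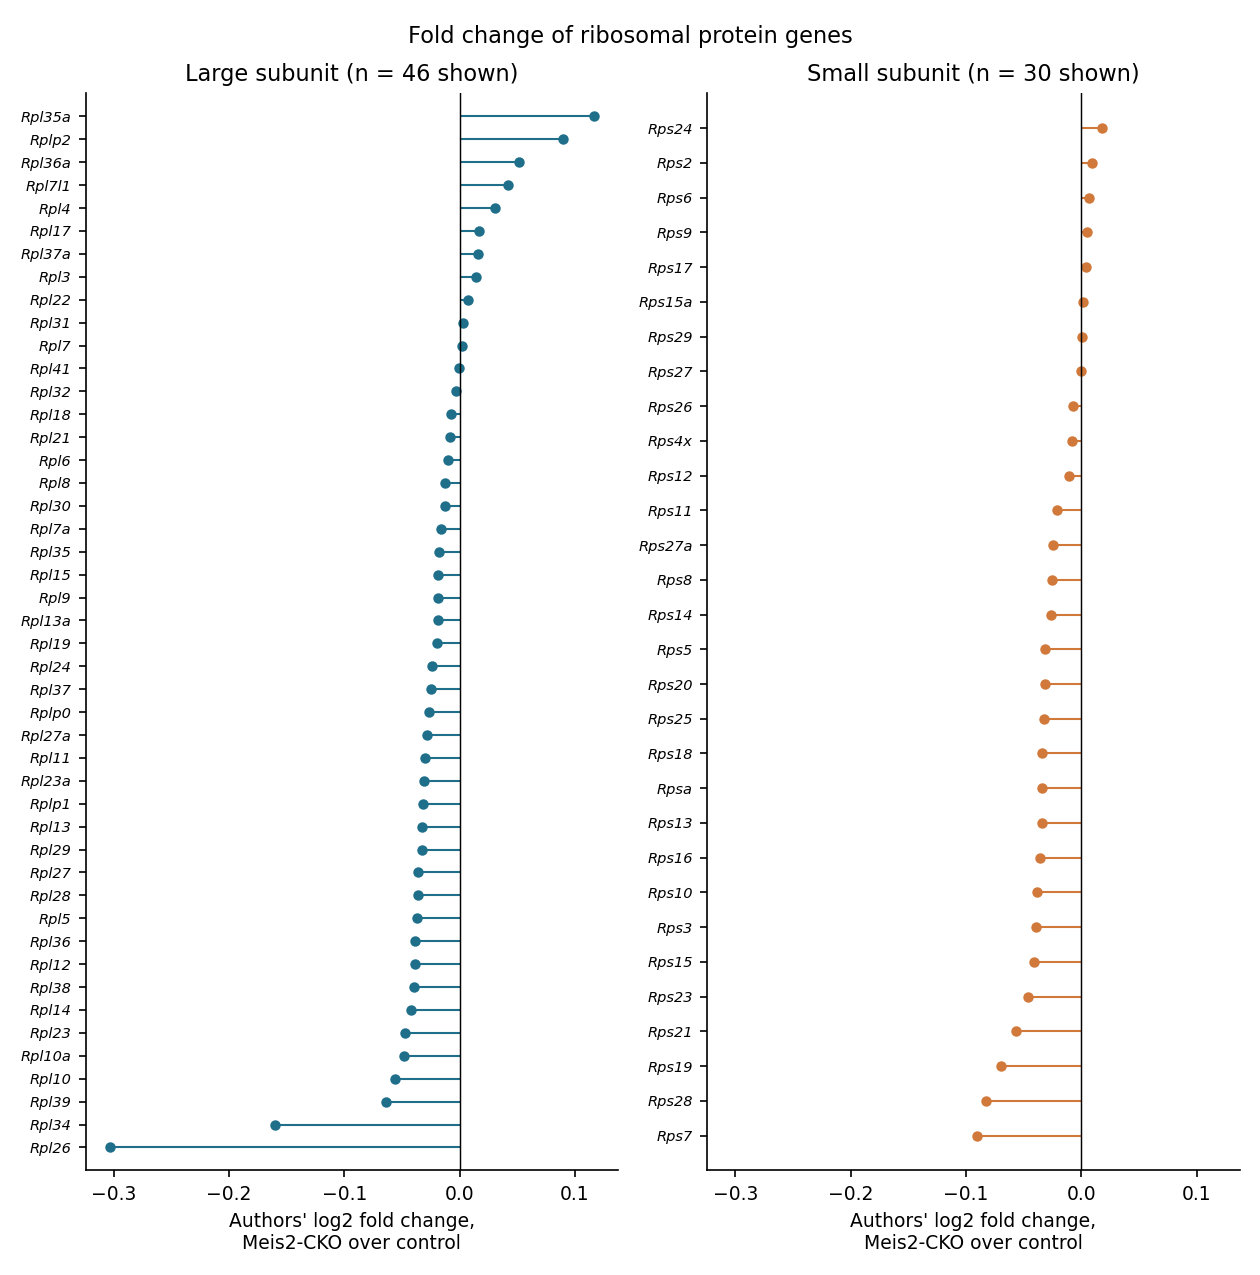
Authors' log2FC (Meis2-CKO over control) of 46 large-subunit and 30 small-subunit genes, ranked within the subunit; each line runs from 0 to the gene's value. Rpl26 and Rpl34 reach -0.30 and -0.16 and Rpl35a 0.12, and the small-subunit genes lie between -0.090 and 0.018.

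The stalk of the large subunit, which recruits the translation factors that use GTP, is made of Rplp0, Rplp1 and Rplp2. Rplp0, which anchors the stalk and is widely used as a reference gene, had authors' means of 920 in control against 896 in Meis2-CKO (log2FC -0.027). Rplp1 had a log2FC of -0.032 in the authors' deposited table. Its partner Rplp2 stood at 512 and 539 in authors' means, with a log2FC of 0.089 (p = 0.332 in the authors' deposited table). Rplp2 was the second highest of the members by log2FC, and none of the 3 passed the test.

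Rpl5 and Rpl11, which carry 5S ribosomal RNA into the ribosome and bind Mdm2 when assembly fails, had similar log2FC values. Rpl5 had authors' means of 544 in control against 526 in Meis2-CKO (log2FC -0.037), and Rpl11 of 861 and 838 (log2FC -0.030) in the authors' deposited table. Rps6, the small-subunit target of the S6 kinases, stood at 870 and 869 in authors' means. Rps19, the gene most often mutated in Diamond-Blackfan anaemia, stood at 749 and 709 (log2FC -0.069, p = 0.539 in the authors' deposited table). Rpl38, whose loss in mice disturbs the patterning of the skeleton, stood at 741 and 717 in authors' means (log2FC -0.040).

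Members whose products have a second identity come next. Rpsa, also known as a laminin receptor, had authors' means of 959 in control against 930 in Meis2-CKO (log2FC -0.034). Rps27a, made as a fusion with ubiquitin, had means of 768 and 751 (log2FC -0.024 in the authors' deposited table). Rpl22, which has the paralog Rpl22l1, stood at 435 and 434 in authors' means, and Rpl22l1, outside the symbol rule, at 198 and 199. Rpl41, the shortest of the ribosomal proteins, stood at 858 and 853 in authors' means (log2FC -0.00064).

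The 4 X-linked members are given apart, since the means of the X-linked Xist and of Eif2s3y differed between genotypes; the part of this in their values was not tested. Rpl10, at the tRNA-binding face of the large subunit, had authors' means of 1144 in control against 1093 in Meis2-CKO (log2FC -0.056), and Rpl39 of 477 and 454 (log2FC -0.063). Rps4x stood at 969 and 958 (log2FC -0.0078) and Rpl36a at 567 and 585 (log2FC 0.052) in the authors' deposited table. These 4 values fell on both sides of 0 and inside the range of the autosomal members. The 77 genes lay on 19 chromosomes, with the highest number, 14, on chromosome 7 (GENCODE M21, GRCm38).

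The spread of the members was also set beside that of other strongly expressed genes, because log2FC values of low genes scatter more. The bound, a control mean of at least 200, was chosen after the members' values were seen and holds 76 of the 77. The sets were not matched for level: the median control mean was 739 for these 76 and 326 for the 275 other genes. Those 275 genes had a median log2FC of 0.016 and quartiles of -0.043 and 0.064 in the authors' deposited table. A log2FC over 0.1 in size was found for 74 of these 275 genes (26.9%), for 52.1% of all genes and for 3 of the 77 members. The median size of the log2FC was 0.028 for the members and 0.056 for those other genes in the authors' deposited table. In lists described further on it was 0.021 for 7 ribosomal protein genes outside the rule and 0.025 for 23 other TOP genes. It was 0.052 for mitochondrial ribosomal proteins, 0.061 for ribosome assembly and 0.069 for the regulators. These lists were not matched for level either. Of the 239 protein-coding genes among the 275 that are not mitochondrial, 23.0% had a log2FC over 0.1 in size.

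**Figure D3:**
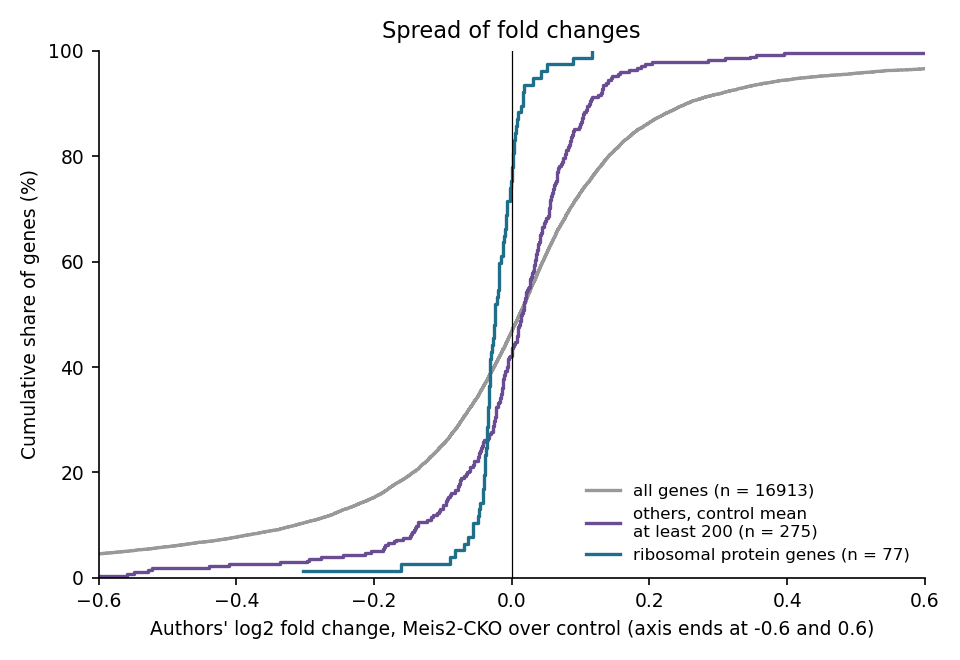
Cumulative share of genes (vertical, percent) by the authors' log2FC (horizontal, shown from -0.6 to 0.6) for the 77 ribosomal protein genes, 275 other genes with a control mean of at least 200 and all 16913 genes. The members' curve is the steepest, with quartiles of -0.036 and -0.00064 against -0.043 and 0.064 for the other strongly expressed genes.

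The 3 members beyond 0.1 were Rpl26, Rpl34 and Rpl35a, and each had a near-identical pseudogene row whose mean lay on the other side. A near-identical copy is here a listed gene elsewhere in the genome whose transcript matches a member's mRNA at 95% identity or more over at least 80% of the copy. There were 198 such copies, belonging to 69 of the 77 members, and 180 of them are typed as pseudogenes. The coding sequences below show how little separates a member from its copy; each stretch of 60 bases surrounds the first difference, which is in capitals, and positions count from the A of the start codon.
Rpl26, bases 162 to 221: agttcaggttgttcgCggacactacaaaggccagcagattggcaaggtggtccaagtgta
Gm15772, the same bases: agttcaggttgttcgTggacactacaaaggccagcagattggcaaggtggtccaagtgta
Rpl34, bases 117 to 176: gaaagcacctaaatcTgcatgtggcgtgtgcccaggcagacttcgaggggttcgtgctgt
Rpl34-ps1, the same bases: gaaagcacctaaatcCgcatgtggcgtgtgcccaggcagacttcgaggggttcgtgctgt
Rpl35a, bases 141 to 200: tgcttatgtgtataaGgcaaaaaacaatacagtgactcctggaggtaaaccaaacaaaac
Gm10243, the same bases: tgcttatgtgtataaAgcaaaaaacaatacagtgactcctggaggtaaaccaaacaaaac
From start to stop codon Gm15772 differs from Rpl26 at 2 of 438 bases (C177T and T288C, member base first), Rpl34-ps1 from Rpl34 at 2 of 354 (T132C and C318G) and Gm10243 from Rpl35a at 1 of 333 (G156A), in GENCODE M21 transcripts. The copies lie on other chromosomes than their members: Gm15772 at chr5:3236431-3236868, Rpl34-ps1 at chr6:71124610-71124963 and Gm10243 at chr6:48523518-48523850 (GRCm38).

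Rpl26, a protein at the exit of the peptide tunnel that has also been linked to translation of p53 mRNA, had the lowest log2FC of all members. Its authors' means were 772 in control against 622 in Meis2-CKO (log2FC -0.30, p = 0.183 in the authors' deposited table; chr11:68901583-68906989, GRCm38). The pseudogene Gm15772 stood at 179 in control against 379 in Meis2-CKO (log2FC 1.07, p = 0.235 in the authors' deposited table). With its 3 listed copies added, Rpl26 summed to 952 in control against 1001 in Meis2-CKO of the authors' mean signal, a log2 ratio of 0.074. The copies' part of that sum was 18.9% in control and 37.9% in Meis2-CKO. The sign of the Rpl26 difference thus changed in this unweighted sum of signals. The values look scaled to length and copies are shorter than full mRNAs, so the sum can give copies more weight than their reads would. Whether the sign would also change in sums of reads was not tested.

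Rpl34, a protein of the large subunit, had authors' means of 508 in control against 452 in Meis2-CKO (log2FC -0.16, p = 0.306 in the authors' deposited table). Rpl34-ps1 stood at 342 and 382 in authors' means (log2FC 0.17). Summed over Rpl34 and its 4 copies the authors' mean signal was 853 and 836, a log2 ratio of -0.028. Rpl35a, the highest member by log2FC and a further Diamond-Blackfan gene, had means of 473 and 510 (0.12, p = 0.679 in the authors' deposited table). Gm10243 stood at 141 and 89.7 in authors' means (log2FC -0.64), and the pseudogenes Rpl35a-ps2, Rpl35a-ps3, Rpl35a-ps4 and Rpl35a-ps6 each had the same pair of values, 30.5 and 23.0. Rpl35a and its 8 copies summed to 737 in control against 692 in Meis2-CKO of the authors' mean signal, a log2 ratio of -0.091. Lengths were not weighted in this sum either, so its change of sign has the same limit as that of Rpl26. Rows with equal values may report the same reads, which this sum would then count more than once. That was not tested. For these 3 genes the row of the member alone gives an uncertain value, since reads from a member and such copies could be divided in either way. The same limit holds for other members with strong copies. Copies held 70.7% of the summed control signal for Rpl29, 48.5% for Rps18 and 30.2% for Rpsa, in authors' means. Whether reads were divided differently in the libraries of the genotypes was not tested.

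**Figure D4:**
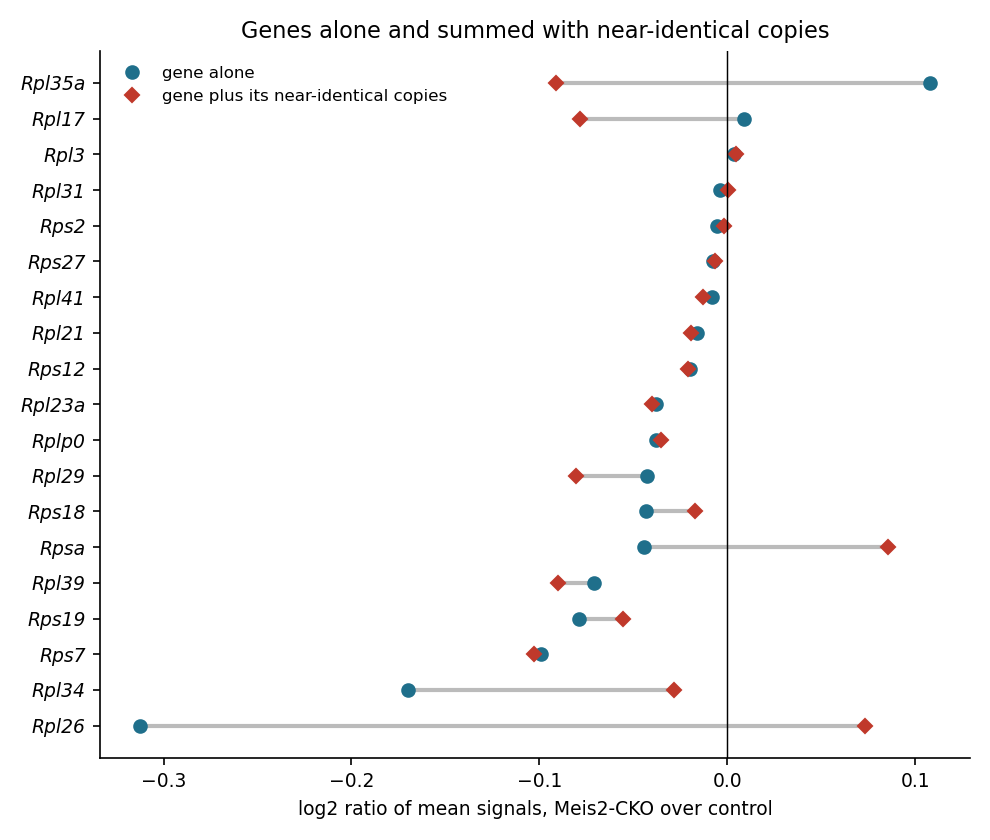
log2 ratio of the authors' mean signals (Meis2-CKO over control) for the 19 members whose copies sum to 20 or more in a genotype: circles give the gene alone, diamonds the gene plus its copies, and grey lines join them. Rpl26 goes from -0.31 to 0.074, Rpl34 from -0.17 to -0.028 and Rpl35a from 0.11 to -0.091. Rpsa, Rpl17, Rpl29, Rpl39 and Rps7 are among those that go away from 0, and others go closer.

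Adding the copies narrowed the range over the 77 members, from -0.31 to 0.11 for the log2 ratio of the authors' means alone to -0.10 to 0.086 with copies. The ends of the first range were Rpl26 and Rpl35a, which were among the 3 members that prompted the step. Adding the copies did not bring every member closer to 0. Other members went both ways, and Rpl29, Rpl39 and Rps7 ended farther from 0. Rpsa went from -0.045 to 0.086, because its copy Rpsa-ps10 stood at 412 in control against 526 in Meis2-CKO (p = 0.695 in the authors' deposited table). Rpl17 went from 0.0090 to -0.078, with its copy Rpl17-ps5 at 94.9 and 57.0 (p = 0.0194 unadjusted, not past the threshold, in the authors' deposited table). The signal scale appears to be per length and copies are shorter than full mRNAs, so these sums are not sums of reads. This step was added after the 3 largest values had been seen.

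The copies of Rpl21 lay on both sides of 0 while the row of the gene itself differed little between genotypes. Rpl21, a large-subunit protein, had authors' means of 299 in control against 295 in Meis2-CKO (log2FC -0.0082). Its processed pseudogene Gm10163 (chr9:88390837-88391317, GRCm38; 99.6% identical to Rpl21 mRNA over 481 bases) fell from 79.96 to 17.2 (log2FC -2.20, adjusted p = 3.63e-30 in the authors' deposited table). The copies Gm10240 and Gm13370 each stood at 105 in control against 135 in Meis2-CKO (log2FC 0.38, not past the threshold in the authors' deposited table). All 11 copies together held 301 in control against 296 in Meis2-CKO of the authors' mean signal, a sum that may count the reads of the equal rows Gm10240 and Gm13370 more than once. Of the 198 copies, 2 passed the threshold, both lower, a share close to the 0.78% of all genes (0.544% as lower); the second was Gm14541, a copy of Rpl39 at 4.49 in control and listed at 0 in Meis2-CKO (authors' means).

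Several members also carry snoRNA genes, of which some passed the threshold and others did not. GENCODE M21 places 56 snoRNA genes inside 29 of the 77 members on the same strand, and 14 of them, in 12 hosts, have a row in the deposited table. The 12 hosts had log2FC values from -0.056 to 0.089 in the authors' deposited table, and none passed. Of the 14 snoRNAs 6 passed, 3 higher and 3 lower, and 5 of these 6 were listed at 0 in a genotype. Of all 70 listed snoRNA genes, inside ribosomal protein genes or not, 36 passed.

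Rps2, a protein near the mRNA entry of the small subunit, had authors' means of 881 in control against 877 in Meis2-CKO, and Snora64 inside it rose from 12.7 to 35.4 (log2FC 1.48, adjusted p = 1.85e-08 in the authors' deposited table). Rpl32 stood at 1241 and 1232 while Snora7a within it was listed at 0 in control and stood at 7.40 in Meis2-CKO (adjusted p = 5.01e-08 in the authors' deposited table). In the other direction Rpl6, at 550 and 542, holds Gm26205, at 12.6 in control and listed at 0 in Meis2-CKO (adjusted p = 7.82e-14 in the authors' deposited table). Rpl27a with Gm24888 (7.16, and listed at 0) and Rpl5 with Gm26387 (6.12, and listed at 0) had the same form in authors' means. The snoRNAs are 130 to 203 nt long, Snora7a overlaps an exon of a protein-coding Rpl32 transcript and the other 13 lie in introns, so reads from host RNA and from the snoRNA cannot be told apart.

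**Figure D5:**
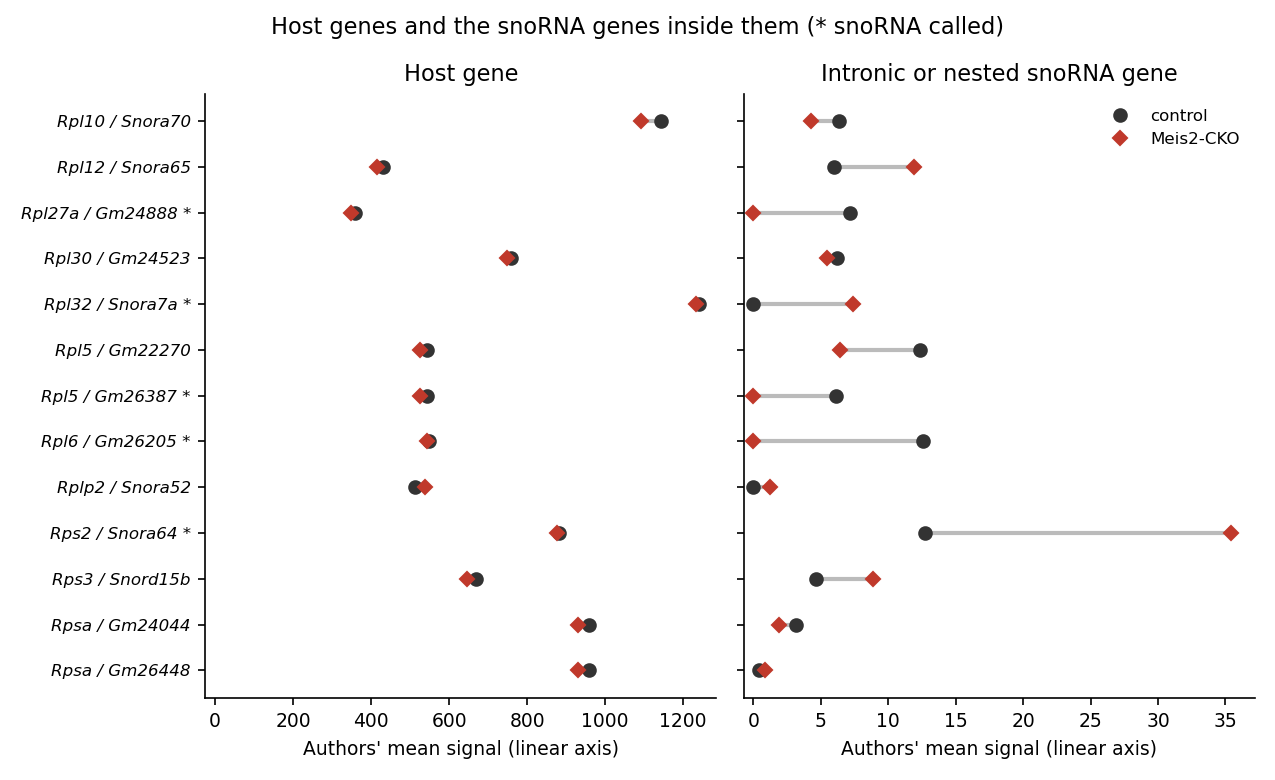
Authors' mean signal (linear axes, different ranges) in control (circles) and Meis2-CKO (diamonds) for 11 of the host genes (left; Rpl5 and Rpsa are shown more than once) and the 13 listed snoRNA genes inside them (right); asterisks mark the 5 of these snoRNAs past the threshold. Host pairs nearly coincide, while Snora64 in Rps2 lies at 12.7 and 35.4.

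The ribosomal protein genes that the symbol rule leaves out passed no threshold. Of the 10 genes listed for this group 7 had a row, and the median log2FC was -0.013 in the authors' deposited table. Fau, a ubiquitin-like fusion with the small-subunit protein S30, had authors' means of 715 in control against 681 in Meis2-CKO (log2FC -0.060). Rps3a1 stood at 773 and 762 in authors' means. Rps27l, a p53-responsive relative of Rps27, stood at 135 and 143 (log2FC 0.096, p = 0.341) and Rps4l, typed as a transcribed pseudogene, at 13.4 and 10.8 (p = 0.314) in the authors' deposited table.

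Other translation genes passed no threshold either. The 79 listed genes for mitochondrial ribosomal proteins, which build the separate ribosome of that organelle, had 37 log2FC values below 0 and a median of 0.0037 in the authors' deposited table. Their smallest p-values were those of Mrpl19 (12.6 in control, 15.6 in Meis2-CKO, p = 0.236) and Mrpl17 (59.9 and 65.5, p = 0.282) in the authors' deposited table. Of 24 further genes whose mRNAs are known for a TOP tract 23 were listed, with 8 below 0 and a median log2FC of 0.0098 in the authors' deposited table. The elongation factor gene Eef1a1 stood at 4458 and 4387 and Tpt1 at 2006 and 2004 in authors' means; both were named after their values were seen. In this group the X-linked initiation factor gene Eif2s3x had the smallest p (100 in control, 126 in Meis2-CKO, log2FC 0.34, unadjusted p = 0.0285 in the authors' deposited table), followed by the X-linked Slc25a5 (320 and 353, p = 0.116).

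The list for ribosome assembly and ribosomal RNA synthesis also held no gene past the threshold. Of the 53 listed, 20 (37.7%) lay below 0, against 46.7% of all genes, with a median log2FC of 0.035 in the authors' deposited table. Polr1d, a subunit of RNA polymerases I and III, stood at 46.2 and 54.1 (p = 0.0973), and Rpf2, which helps bring 5S RNA to the large subunit, at 28.9 and 24.4 (p = 0.235) in the authors' deposited table. The 21 regulators of ribosomal protein synthesis had a median log2FC of 0.044 in the authors' deposited table, with 12 above 0. The growth-control factor gene Myc stood at 12.1 in control against 6.98 in Meis2-CKO (log2FC -0.77, unadjusted p = 0.0195 in the authors' deposited table), and it stayed short of the threshold after adjustment. Trp53 stood at 45.5 and 50.4 (p = 0.278 in the authors' deposited table). None of the members of these 5 lists passed the authors' adjusted p of 0.05.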

How the data were processed

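RNA of 8 samples (4 control, 4 Meis2-CKO) was sequenced from column-purified RNA, per the labels' protocols; the submitters' processing notes name StringTie 1.3.1, HISAT2 2.1.0, FastQC 0.11.5, GRCm38.p2 and mm10 without their roles. The mean signal per genotype was averaged by the authors, per the file headers, which name no unit. The authors deposited the log2 fold change, the p-value and an adjusted p, which equals a Benjamini-Hochberg adjustment over all 16913 rows. A further 8 columns, for single libraries, carry names found in no label and were not used, so no fit over samples, left-out sample or SD is given. Depth is unknown.

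Members and lists were chosen with earlier results of these data known, and the sums with copies, the bound of 200, the step without the 3 largest members and the Benjamini-Yekutieli adjustment of the other lists were added after seeing the data. Named genes are the 5 highest and lowest by control mean and by log2 fold change, members with a small p (none), 14 fixed genes, and up to 3 called or the 2 smallest p of each list; others were named after their values were seen or for their copies or snoRNAs. 2 genes are counted but not reported here by name, in the text or the figures. Gene places came from GENCODE M21 (16861 genes matched by ID). Copies were found with blastn 2.17.0 (plus strand), leaving out genes that overlap the member. Promoters came from RefSeq by symbol. Adjustment steps were tested on simulated data. Python 3.11.15, numpy 2.4.6, pandas 2.3.3 and matplotlib 3.10.9 were used.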

Additional observations from a re-analysis of the deposited data

How the results depend on the processing

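The count of 0 called members stayed 0 under the Benjamini-Yekutieli adjustment and adjustment over protein-coding genes alone. It was also 0 with a fold change of at least 1.5 and a higher mean of at least 2. None of these settings could have added a call. An adjusted p is never below its unadjusted p, and the smallest of a member was 0.183 in the authors' deposited table. The median log2 fold change of the members, -0.024, lay between -0.037 and -0.020 under all alternatives; the lowest, -0.037, came from centring on the median gene, which shifts every value by 0.013. The difference of the large- and small-subunit medians was 0.0096 and ranged from 0.0080 to 0.010, and the members' share of signal was at most 11.4% in control and 11.2% in Meis2-CKO with other denominators. Of the single genes followed, Rpl26 (0.074), Rpl34 (-0.028) and Rpl35a (-0.091) moved with copies summed. Rpl4, with an authors' log2 fold change of 0.031, had 0.020 with a pseudocount of 1 and 0.018 when centred. Its log2 ratio of the genotype means was 0.020 without a pseudocount too. The settings with a pseudocount, equal column sums or summed copies used such ratios in place of the authors' log2 fold change. No paired analysis was possible because the columns that could be mapped are means over each genotype, and for the same reason no sample was left out in turn.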

Other observations

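Among the near-identical copies 8 of 198 reached an unadjusted p below 0.05, by the authors' deposited table, against 2.17% of all genes. Beside those given above they include Gm28900 (Rpl21) and Gm12013 (Rpl39), both listed at 0 in Meis2-CKO, and Gm6134 (Rps29), listed at 0 in control and at 1.73 in Meis2-CKO. Like Gm14541, these have low means with a 0 in a genotype, and Gm10240 and Gm13370 are equal rows. Of the 24 copies with a mean of at least 20 in either genotype, 4 had an unadjusted p below 0.05, these equal rows included. Low rows are also part of the share over all genes. Whether the count of 8 is an excess among copies was not tested. The copy with the highest mean was Gm10260, typed as protein-coding and near-identical to Rps18, at 541 in control and 544 in Meis2-CKO beside 575 and 558 for Rps18 itself, in authors' means. For Rpl29 the copies held 70.7% of the summed control signal and 69.9% of the Meis2-CKO signal, with Gm8210 at 338 and 352 and Gm13841 at 146 and 101 in authors' means.

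Across the 77 members the log2 control mean and the log2 exon length had Pearson's r of -0.23 and Spearman's rho of -0.23, a description across genes of the same libraries, which are not independent replicates. The log2FC had r of -0.071 and rho of 0.12 with the log2 control mean.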
